A study of Crinum x powellii with 21 samples.

Results

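The genes described here were high in both basal plate libraries of Crinum x powellii 'Album' and low in every leaf, root and bulb library. They were chosen by those measured values. Estimated counts were summed per gene and divided by the library total to give CPM. A gene was kept if it had at least 5 CPM in both basal plate libraries and if its lower basal plate value was at least 4 times its highest value in any leaf, root or bulb library, after 1 CPM had been added to each. Of 676992 genes, 17490 reached 5 CPM in both basal plate libraries and 22 met the whole rule, so that the limit of 200 genes was not reached. When CPM were scaled with TMM factors, 7 genes met the rule, all of them among the 22. The 22 genes are ranked by this ratio, from 86.9 at rank 1 to 4.09 at rank 22. Because the rule used the organ libraries, the levels in organs are given as a description, without a test, and tests were made only between callus libraries.

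The basal plate is the short, compressed stem at the foot of a bulb. It carries the scales and the buds, and the adventitious roots leave the bulb from it. Bulb plants are propagated in culture from twin scales, pairs of scale pieces held together by a piece of basal plate, and an auxin such as 2,4-D makes such explants form callus, a mass of proliferating, little differentiated tissue.

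The study brought together RNA-seq libraries of polyadenylated RNA, all of the genotype var Album. The 10 organ libraries, for which no treatment applied, came from basal plate (n = 2), root (n = 2), leaf (n = 3) and bulb (n = 3). The 11 callus libraries came from twin-scale explants on MS medium that held the cytokinins BAP and kinetin, sucrose and yeast extract in all 4 groups. Callus grew in a cycle of 14 h light and 10 h dark with 2 mg/L of 2,4-D (n = 3) or 4 mg/L (n = 3), or in 24 h dark with 2 mg/L (n = 2) or 4 mg/L (n = 3). These doses are those of the treatment label, although the titles of the 2 mg/L libraries carry a 3. Bulbs were bought and stored cold before the organs were frozen, and the growth protocol names leaves, roots and bulbs but not the basal plate. No plant or culture is named, so p-values measure only the spread between these libraries, which may be technical. Organ RNA was isolated with a CTAB buffer and callus RNA with a column kit, so that tissue and isolation method cannot be told apart between callus and organs. In bulk RNA, fewer cells of a type and less RNA per cell cannot be told apart either.

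The gene identifiers are those of a Trinity assembly, in which a gene is a group of assembled isoforms and may be a fragment of a true gene. The files give them no gene names. No role is therefore stated for any member, no sequence is shown, and the tissue labels were not checked against marker genes. The 22 members carried 22 different cluster numbers of the assembly.

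Totals of estimated counts lay between 26403881 and 67502918 per library, with 43251035 and 28071524 in basal plate libraries 1 and 2. No replicate pair agreed within sampling noise. Basal plate library 2 stood apart: 57923 genes reached 1 CPM in it, against 28676 to 40835 in the other 20 libraries. Across all genes, which are not independent replicates, the correlation of both basal plate libraries was 0.905, and the lowest within any other group was 0.981. Applied to basal plate library 1 alone, the rule found 67 genes, and applied to library 2 alone it found 1055 genes. The 22 members were 32.8% of the former and 2.09% of the latter list. Of the 1055 genes, 844 were below 1 CPM in library 1, where the median of the list was 0.0694 CPM against 8.09 CPM in library 2. Of the 67 genes, 18 were below 1 CPM in library 2. The demand for both libraries thus set the size of the list.

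**Figure D1:**
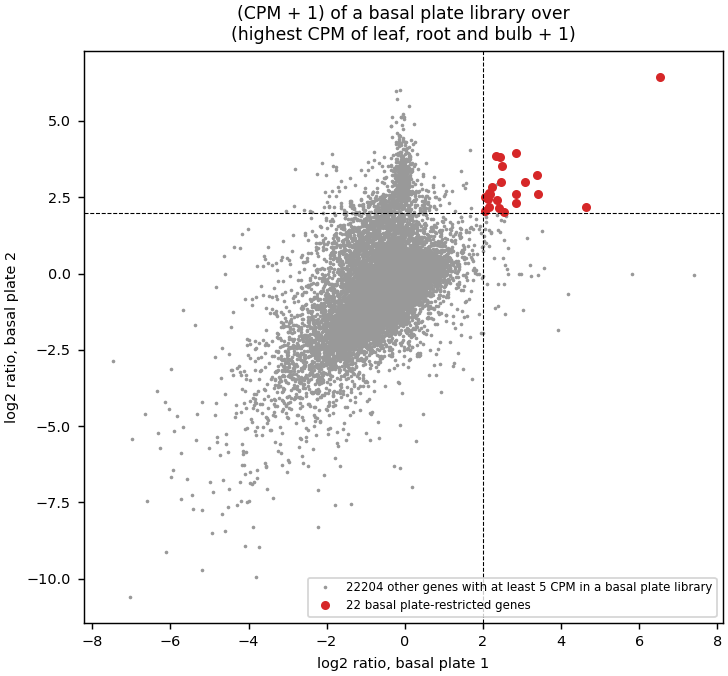
The log2 ratio of (CPM + 1) in basal plate library 1 (horizontal axis) and in library 2 (vertical axis) to (highest leaf, root or bulb CPM + 1), one point per gene with at least 5 CPM in either basal plate library; dashed lines mark the ratio of 4. The 22 members (red) lie in the upper right, and the genes high in library 2 alone form a column near 0 on the horizontal axis.

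The same rule applied to the other organs gave 181 genes for root, 158 for leaf and 57 for bulb, where all libraries of the organ had to pass. With pairs of libraries, as in the basal plate, the leaf gave 160 to 345 genes and the bulb 58 to 71.

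Rank 1, Crpow_TRINITY_DN10918_c0_g2, was the extreme member. It had 93.5 and 87.1 CPM in the basal plate libraries, from 4042 and 2446 counts, and a single count in all 8 leaf, root and bulb libraries together. Rank 2, Crpow_TRINITY_DN1466_c1_g1, followed at a ratio of 9.30, with 10.5 and 9.19 CPM in the basal plate, 0.0502, 0.0677 and 0.0957 CPM in the bulb and 0 in every leaf and root library. Thus a wide gap separated rank 1 from all other members.

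At the edge of the list, rank 22, Crpow_TRINITY_DN5791_c0_g3, had a lower basal plate value of 7.52 CPM and a highest value elsewhere of 1.08 CPM in root, which gave 4.09. The gene just outside, Crpow_TRINITY_DN6307_c0_g1, had 7.37 and 1.18 CPM and a ratio of 3.84. Both genes on either side of the threshold were thus close in every value the rule used.

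Over the 22 members the lower basal plate value ran from 5.36 to 142 CPM with a median of 18.0 CPM, and the highest value in leaf, root or bulb from 0.0148 to 27.0 CPM with a median of 2.15 CPM. The basal plate libraries were within 1.5-fold of each other for 15 members and over 2-fold apart for 5. The widest gap was at rank 14, with 40.0 CPM in library 1 and 6.48 in library 2. Ranks 11 and 9 leaned the other way, with 15.3 and 45.8 CPM and with 8.18 and 22.9 CPM.

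The organ nearest to the basal plate was not the same for all members. The highest library outside the basal plate was a root library for 11 members, a bulb library for 8 and a leaf library for 3, against 37.5%, 24.9% and 37.6% of the 17490 genes. Root library 3 exceeded root library 1 in 15 of the 22, and in 54.8% of the 17490 genes. In the root, rank 3 had 9.12 and 16.1 CPM and rank 15 had 3.93 and 10.7 CPM, against at most 0.104 CPM for both in any leaf library. Ranks 10, 18 and 19 were instead present in all leaf, root and bulb libraries, with 4.12 to 27.0 CPM, 7.26 to 15.1 CPM and 6.10 to 17.6 CPM. Rank 21 was at 5.80 to 7.65 CPM in leaf and bulb and at 0.555 and 0.686 CPM in root. Only 6 members stayed below 1 CPM in all 8 leaf, root and bulb libraries.

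**Figure D2:**
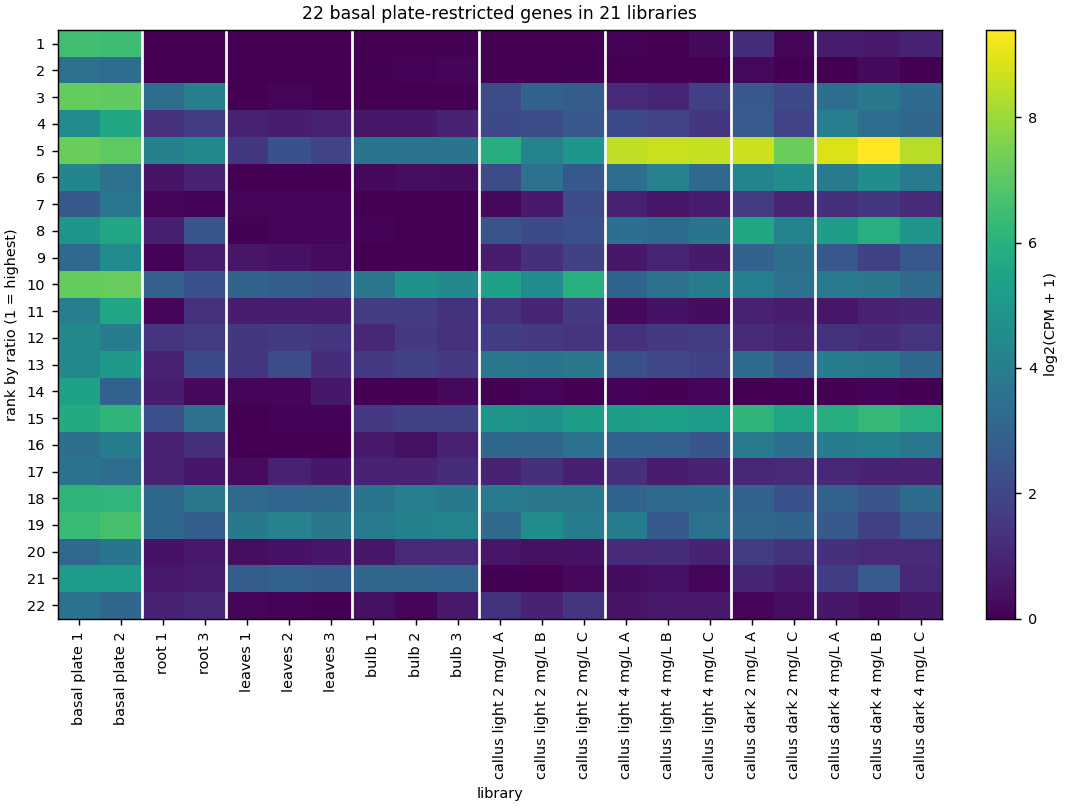
Colour gives log2(CPM + 1) of the 22 members (vertical axis, rank by ratio) in the 21 libraries (horizontal axis), with white lines between groups. The basal plate columns are bright in every row, while the callus columns range from dark (ranks 1, 2 and 14) to brighter than the basal plate (rank 5).

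Levels were compared between members as TPM, the deposited unit that takes transcript length into account. In the basal plate, rank 5 was the most abundant member per length, with 181 TPM in library 1 and 94.4 TPM in library 2. Rank 18 followed with 106 and 66.3 TPM, then rank 3 with 95.1 and 57.6 TPM and rank 1 with 61.1 and 35.4 TPM. This order was the same in both libraries, each of the 4 being higher in library 1 on the TPM scale. Their CPM differed far less between the libraries, and for rank 18 were 70.6 in library 1 and 71.5 in library 2. Rank 7 had the lowest mean, with 3.02 and 4.17 TPM, although rank 14 was lower in library 2 at 2.51 TPM.

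Several isoforms were assembled for 18 members and a single one for the other 4. In 16 of the 18 the same isoform led in both basal plate libraries, and in 10 of the 18 this isoform also led in the summed callus counts. Rank 5 was among those that did not keep it: one isoform held 59.8% and 66.6% of its counts in the basal plate, and another held 50.7% in callus.

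Callus is the tissue that the rule did not use, and it separated the members. In all 11 callus libraries 16 of the 22 members stayed below their lower basal plate value, which 22.3% of the 17490 genes with at least 5 CPM in both basal plate libraries did. A value of at least 1 CPM in every callus library was found for 10 members, against 96.2% of those genes. By group, 12 members (2 mg/L) and 11 members (4 mg/L) reached 1 CPM in every light-grown library, and 15 (2 mg/L) and 16 (4 mg/L) in every dark-grown one. The corresponding shares of the 17490 genes were 97.9%, 97.9%, 97.5% and 97.7%. Low values outside the basal plate were a condition for the members and not for those genes, so the shares describe the list and are not a test.

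At one end, ranks 1, 2 and 14 had almost no reads in callus. Rank 2 had 18 counts and rank 14 had 16 counts in the 11 callus libraries together, against 455 and 258 counts and 1728 and 182 counts in the basal plate libraries. Rank 1 had 1, 0 and 0 counts in light-grown callus at 2 mg/L and 4, 1 and 9 counts at 4 mg/L. In dark-grown callus it had 50 and 5 counts at the lower dose and 36, 29 and 44 counts at the higher dose. Its highest callus value, 1.34 CPM, was far below both basal plate values.

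At the other end, 5 members exceeded their higher basal plate value in some callus library, against 58.2% of the 17490 genes. These were ranks 5, 6, 8, 15 and 16, and 3 of them (6, 15 and 16) together with rank 7 were above their highest leaf, root or bulb value in all 11 callus libraries. Of the 17490 genes 3.28% were above all leaf, root and bulb libraries in this way. Members were chosen for low leaf, root and bulb values and those genes were not, so this share is a description and not a test. For rank 7 the margin was narrow and near 0. It had 0.186 CPM (11 counts) in the lowest callus library and 0.131 CPM (5 counts) in the highest leaf library. Rank 15 had 52.3 and 70.2 CPM in the basal plate, 26.5 to 38.1 CPM in the 6 light-grown libraries and 44.5 to 75.1 CPM in the 5 dark-grown ones. Rank 16 had 10.1 and 14.5 CPM in the basal plate, 4.69 to 10.6 CPM in light and 9.87 to 15.9 CPM in the dark. For both, dark-grown callus overlapped the basal plate, and isolation method differed between these tissues.

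Rank 5 had the largest share of the members' summed CPM in 3 of the 4 callus groups, while rank 10 led in light with 2 mg/L at 21.8%. It had 156 and 132 CPM in the basal plate. In light it had 56.7, 17.3 and 29.8 CPM with 2 mg/L and 358, 398 and 382 CPM with 4 mg/L. In the dark it had 407 and 156 CPM with 2 mg/L and 473, 669 and 332 CPM with 4 mg/L. The light-grown libraries with 2 mg/L were thus the only callus libraries below both basal plate libraries.

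The summed CPM of the 22 members was 1006 and 1069 in the basal plate, 61.3 and 90.0 in root, 41.0 to 50.0 in leaf and 67.4 to 90.0 in bulb. In callus it was 185 ± 28.2 (SD, n = 3) at 2 mg/L and 486 ± 20.4 (SD, n = 3) at 4 mg/L in light, and 461 ± 229 (SD, n = 2) at 2 mg/L and 696 ± 205 (SD, n = 3) at 4 mg/L in the dark. Rank 5 alone made up 78.0%, 61.1% and 70.6% of the sum in the last 3 of these groups. Without it the callus sums were 150.3, 107, 179 and 205 CPM in the same order, so that the higher dose then had the lower sum of both light-grown groups. The sum is therefore no measure of the other 21 members.

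**Figure D3:**
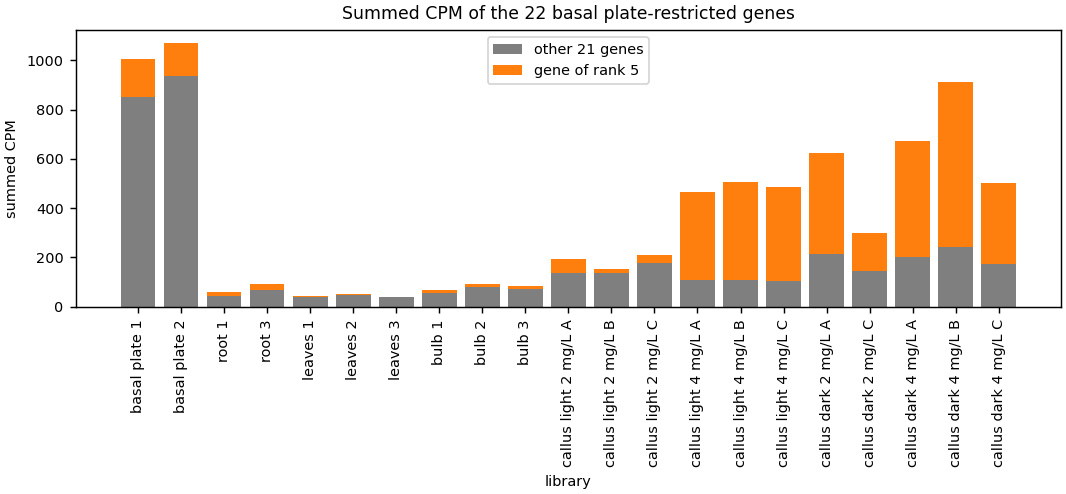
Bars give the summed CPM of the 22 members in each library (vertical axis, linear from 0), with the part of rank 5 in orange and that of the other 21 in grey. Grey is highest in both basal plate libraries, while orange makes up most of the bar in the callus libraries outside light with 2 mg/L.

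The callus cultures were made to see how light and the dose of 2,4-D act. The 11 callus libraries were fitted together with edgeR's quasi-likelihood test over 121349 genes, with Benjamini-Hochberg adjustment over all of them, and a gene with an adjusted p under 0.05 is termed called. Among the 22 members 20 passed the filter on low counts, and ranks 2 and 14 did not. The 4 contrasts share callus groups pairwise, so their calls are not independent of each other. Fold changes were fitted with TMM scaling, while the CPM given beside them were divided by library totals alone. The CPM therefore need not give the fitted fold. For rank 10 the log2 fold change of light over dark at 2 mg/L was 2.01 with TMM and 1.63 with library totals.

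At 2 mg/L, 14 members were called, of which 7 (ranks 10, 11, 12, 13, 18, 19 and 22) were higher and 7 (ranks 1, 5, 6, 8, 9, 20 and 21) were lower in light than in the dark. Over all genes tested 13.4% were called higher and 12.1% lower. Among the 17462 tested genes that reached 5 CPM in both basal plate libraries, 42.7% were called, 27.4% higher and 15.3% lower. The members' 14 of 20 are to be read against these shares. The median log2 fold change was 0.23 over the 20 members, 0.13 over those 17462 genes and -0.06 over all genes. When library totals replaced the TMM scaling, the median of all genes moved to -0.38 and 14 members were called, 6 higher and 8 lower. Of the genes with at least 5 CPM in both basal plate libraries 57.1% were then called, 21.8% higher and 35.3% lower. Without dark-grown library C, which leaves a lone dark-grown library, the median log2 fold change was -0.23 over the 20 members. It was then 0.07 over the tested genes with at least 5 CPM in both basal plate libraries.

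The largest called rise in light at 2 mg/L, by the rule on level and overlap, was that of rank 10, Crpow_TRINITY_DN89190_c0_g1. It had 40.5, 21.8 and 58.3 CPM in light and 15.7 and 10.2 CPM in the dark, below its basal plate values of 142 and 148 CPM. All light-grown libraries were above both dark-grown ones, and the log2 fold change was 2.01 ± 0.39 (SE; edgeR, adjusted p = 0.00021). Over 20 alternatives its adjusted p ranged from 7.05e-11 to 0.0682, and limma on log2(TPM + 1) and on log2(TPM + 0.1) did not call it.

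The largest called fall was that of rank 8, Crpow_TRINITY_DN9234_c0_g1, with 4.42, 3.33 and 3.87 CPM in light and 47.8 and 17.3 CPM in the dark. The groups did not overlap, and the log2 fold change was -2.76 ± 0.33 (SE; edgeR, adjusted p = 2.04e-07). It was called in all 20 alternatives, and the value was -1.74 without dark-grown library A and -3.37 without library C. In the dark its level at 2 mg/L spanned the basal plate values of 30.6 and 44.8 CPM.

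Rank 5 fell by 2.72 ± 0.36 on the log2 scale (SE; edgeR, adjusted p = 1.18e-06), with -1.76 without dark-grown library A and -3.31 without library C. Rank 22 was higher by 3.37 ± 0.52 (SE; edgeR, adjusted p = 1.13e-05), at low levels of 0.910 to 1.72 CPM in light and 0.0804 and 0.261 CPM in the dark, and its value was 4.37 without dark-grown library C. For rank 1 no fold is given at this dose, because light-grown callus held a single count. Its call rested on one dark-grown library, since without library A the adjusted p (edgeR) was 0.106.

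At 4 mg/L, 11 members were called and nearly all were lower in light: 10 (ranks 1, 3, 4, 8, 9, 11, 13, 15, 16 and 21) were lower and 1 (rank 19) was higher. Over all genes 5.28% were called lower and 7.32% higher. Of the tested genes with at least 5 CPM in both basal plate libraries 26.1% were called, 15.9% lower and 10.1% higher. The median log2 fold change was -0.98 over the 20 members, -0.12 over those genes and 0.06 over all genes.

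Rank 3, Crpow_TRINITY_DN4477_c0_g1, showed the largest called fall by the same rule. It had 1.14, 0.937 and 2.46 CPM in light against 9.73, 12.5 and 8.62 CPM in the dark, which is a log2 fold change of -2.72 ± 0.35 (SE; edgeR, adjusted p = 1.67e-06). The groups did not overlap and all 20 alternatives called it, with -3.41 without light-grown library C. Every callus library lay far below its basal plate values of 143 and 137 CPM and none exceeded the higher root library.

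Rank 19, Crpow_TRINITY_DN850_c0_g1, was the single member called higher in light at 4 mg/L, with 14.9, 5.31 and 10.5 CPM in light and 5.23, 2.63 and 4.92 CPM in the dark. Light-grown library B lay only just above the highest dark-grown library. The log2 fold change was 1.25 ± 0.32 (SE; edgeR, adjusted p = 0.00881). The call was lost without light-grown library A and without dark-grown library B, with adjusted p (edgeR) of 0.0782 and 0.0693, and over 20 alternatives the adjusted p ranged from 0.000232 to 0.714.

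Rank 21 was called lower in light at both doses and was below every leaf and bulb library in all 11 callus libraries. At 4 mg/L it had 0.233, 0.375 and 0.121 CPM in light and 2.34, 5.47 and 1.06 CPM in the dark (log2 fold change -3.59 ± 0.52, SE; edgeR, adjusted p = 1.12e-05), and the value was -2.81 without dark-grown library B. At both doses 7 members were called: ranks 1, 8, 9 and 21 were lower in light at each dose, rank 19 was higher at each, and ranks 11 and 13 were higher at 2 mg/L and lower at 4 mg/L. The call at 2 mg/L was lost without dark-grown library C for ranks 11, 13 and 19 (edgeR, adjusted p of 0.195, 0.176 and 0.0525), and for rank 11 also without light-grown library C (0.123) and with library totals (0.0823). At 4 mg/L the call of rank 11 was lost without light-grown library A (0.071) or dark-grown library C (0.0683), and that of rank 15 without light-grown library B (0.0615) or dark-grown library B (0.0894). The call of rank 1 at 4 mg/L was lost with DESeq2 (adjusted p = 0.0733) and with limma at both pseudocounts (adjusted p of 0.242 and 0.148). Rank 21 at 2 mg/L had 3, 0 and 11 counts in light and 36 and 27 in the dark. Limma at a pseudocount of 1 did not call it (adjusted p = 0.212). For ranks 11 and 19 limma lost the calls at both doses, and for rank 13 that at 2 mg/L.

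**Figure D4:**
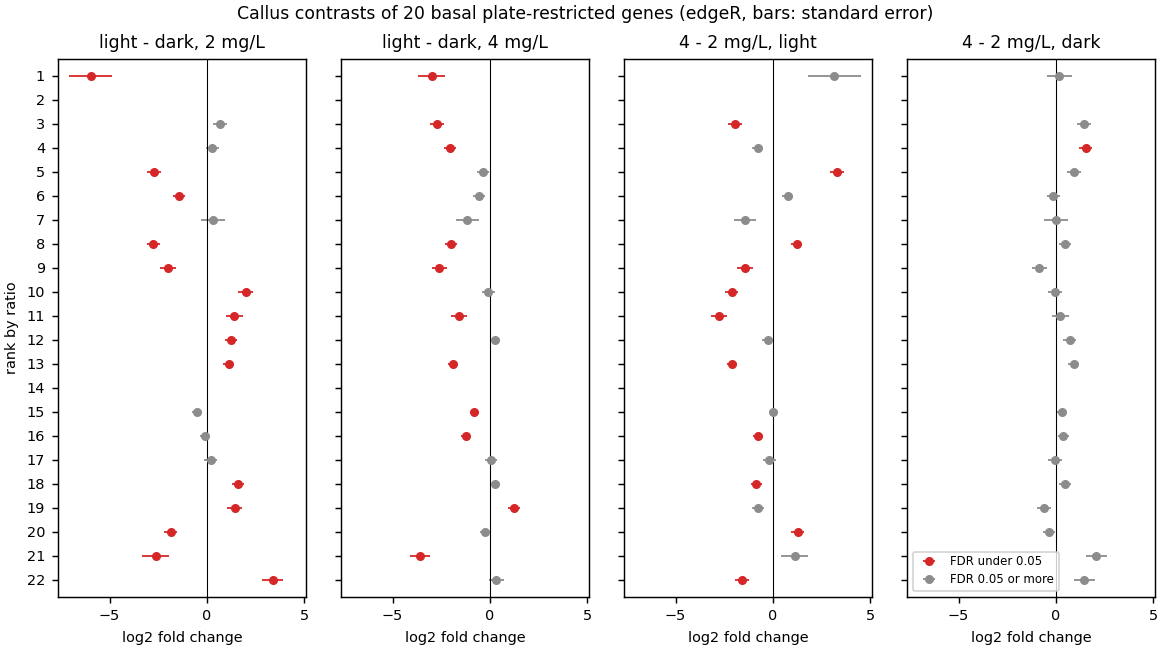
Log2 fold changes (horizontal axes) of the 20 members tested (vertical axis, rank by ratio) in 4 contrasts between callus groups, with the standard error as bars and adjusted p under 0.05 in red. At 2 mg/L red points lie on both sides of 0, at 4 mg/L 10 of the 11 red points lie below 0, and in the dark the dose contrast has 1 red point.

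The dose of 2,4-D was compared within light and within the dark. In light 11 members were called, 3 higher (ranks 5, 8 and 20) and 8 lower (ranks 3, 9, 10, 11, 13, 16, 18 and 22) with 4 than with 2 mg/L. Over all genes 11.1% were called higher and 10.6% lower. Of the tested genes with at least 5 CPM in both basal plate libraries 32.5% were called, 10.1% higher and 22.4% lower. Rank 5 rose most, by 3.29 ± 0.35 on the log2 scale (SE; edgeR, adjusted p = 3.59e-08), from the values given above, and all 20 alternatives called it. Rank 13 showed the largest fall by the rule on level and overlap, from 12.3, 11.6 and 12.1 CPM to 4.02, 2.96 and 2.48 CPM (log2 fold change -2.12 ± 0.26, SE; edgeR, adjusted p = 4.6e-07). Its libraries at 2 mg/L lay close together and did not overlap those at 4 mg/L. Rank 10 also met that rule and fell by nearly as much (log2 fold change -2.11 ± 0.33, SE; edgeR, adjusted p = 2.02e-05). Without light-grown library C at 2 mg/L 8 members were called, 3 higher and 5 lower, and the calls of ranks 9, 16 and 18 were lost (edgeR, adjusted p of 0.401, 0.215 and 0.0816).

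In the dark 1 member was called, rank 4, which had 5.44 and 2.74 CPM with 2 mg/L and 15.1, 9.56 and 7.54 CPM with 4 mg/L. Its log2 fold change was 1.54 ± 0.34 (SE; edgeR, adjusted p = 0.0294). Over all genes 0.419% were called higher and 0.0832% lower, and 8 members had an unadjusted p under 0.05, as did 7.98% of all genes tested. The call of rank 4 was lost without dark-grown library C at 2 mg/L and without dark-grown library A at 4 mg/L, with adjusted p (edgeR) of 0.754 and 0.128, and over 20 alternatives it ranged from 0.000315 to 0.754. The log2 fold change of rank 4 was 2.21 without dark-grown library A at 2 mg/L and 1.09 without library C. Both dark-grown libraries at 2 mg/L differed widely for several members, as for rank 5 with 407 and 156 CPM.

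**Figure D5:**
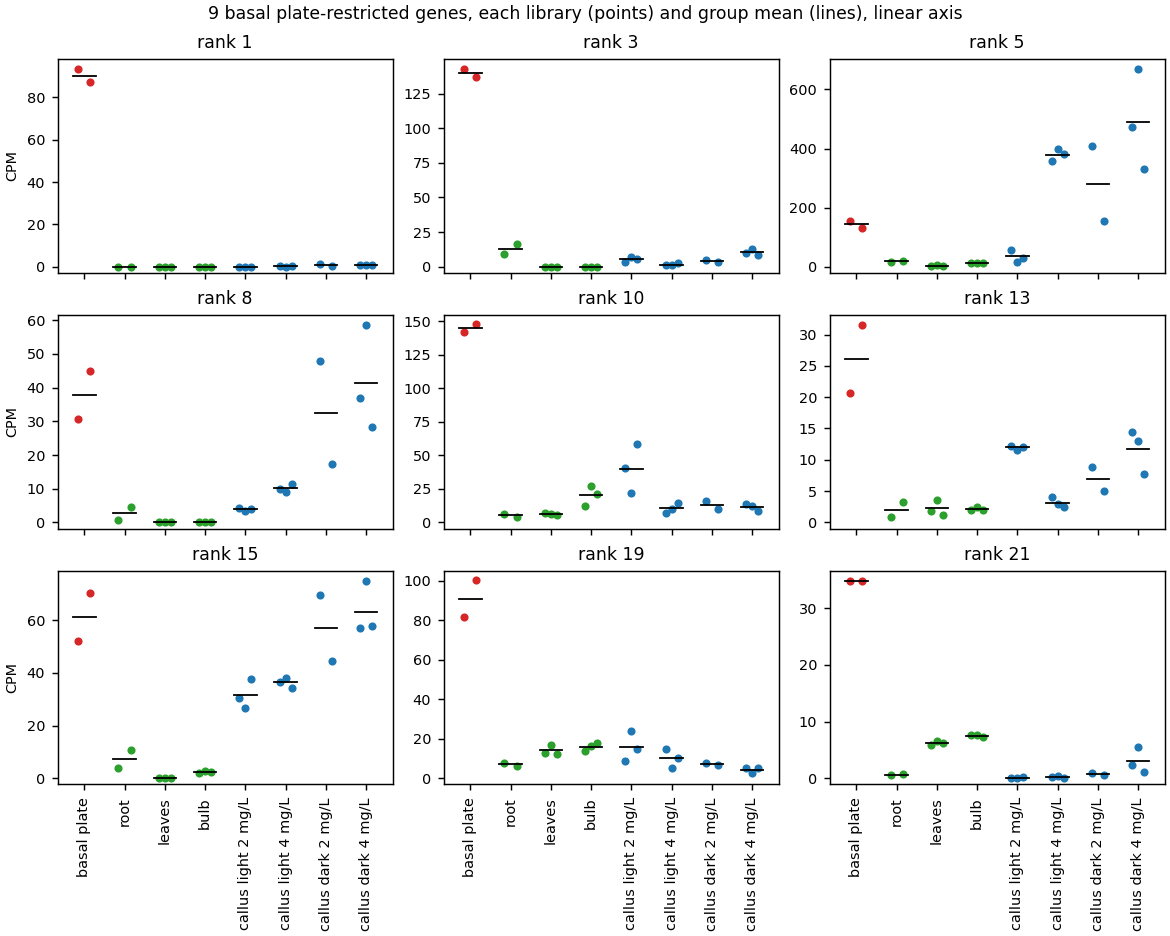
CPM of 9 members in each library (points) with group means (lines), on linear vertical axes of different range; basal plate in red, other organs in green, callus in blue. Callus lies at or above the basal plate for ranks 5, 8 and 15 in some groups, and near 0 throughout for rank 1.

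Whether the effect of light differed between doses was tested with the interaction of light and 2,4-D, which was called for 10 members. In 8 of them (ranks 3, 4, 10, 11, 13, 16, 18 and 22) the difference of light minus dark was lower at 4 than at 2 mg/L, and in 2 (ranks 5 and 20) it was higher. Over all genes 11.5% were called in this test, as were 21.2% of the genes with at least 5 CPM in both basal plate libraries. Among the latter genes 17.1% were called with a negative and 4.17% with a positive interaction, so negative calls prevailed there too. Rank 13 had 12.3, 11.6 and 12.1 CPM in light and 8.79 and 4.96 CPM in the dark at 2 mg/L, and 4.02, 2.96 and 2.48 CPM in light and 7.73 to 14.5 CPM in the dark at 4 mg/L. The order of light and dark thus turned round between doses, with an interaction of -3.03 ± 0.39 on the log2 scale (SE; edgeR, adjusted p = 2.91e-06). This call held when each callus library was left out in turn, whereas those of ranks 16 and 18 were lost without dark-grown library C at 2 mg/L (edgeR, adjusted p of 0.202 and 0.195) and without several other libraries. The call of rank 20 was lost without dark-grown library A at 2 mg/L (edgeR, adjusted p of 0.137), and the value of rank 5 was then 1.38.

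Because basal plate library 2 stood apart, calls were also counted among the genes picked in a single basal plate library. Of the 67 genes picked in library 1 alone, 53 passed the filter, of which 36 were called for light at 2 mg/L (22 higher and 14 lower) and 29 at 4 mg/L (6 higher and 23 lower). Of the 1055 genes picked in library 2 alone, 460 passed the filter, of which 184 (120 higher and 64 lower) and 112 (78 higher and 34 lower) were called. These calls were 67.9% (2 mg/L) and 54.7% (4 mg/L) of the tested genes in the former list, and 40% and 24.3% in the latter. Of all tested genes with at least 5 CPM in both basal plate libraries 42.7% and 26.1% were called. The lower calls at 4 mg/L thus outnumbered the higher ones in the former list and not in the latter. They did so too among the genes with at least 5 CPM in both libraries, with 15.9% lower and 10.1% higher. These lists were added after the data had been seen, and both contain the 22 members. With TMM-scaled CPM, 7 of the members met the rule and 6 of them were tested. None of these was called higher in light, 4 were called lower at 2 mg/L (median log2 fold change -1.73) and 5 at 4 mg/L (median -2.32), so the 7 higher calls at 2 mg/L came from members that this scaling leaves out.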

How the data were processed

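Reads were processed by the authors, and per the submitters' processing notes fastp 0.23.4, kallisto 0.46.1 and Salmon 1.4.0 were used, with no role or order stated. The authors deposited tables of estimated counts and of TPM from 2 quantifiers, at the level of isoforms and of genes. The deposited gene tables named as counts equal TPM multiplied by the library total in 100% of values (tolerance 1% plus 0.02 counts) and were not used. Instead, the deposited estimated counts per isoform were summed per gene, divided by library totals for CPM and rounded for tests. Isolation method and library replicate are as the labels give them. Tests used edgeR 4.0.16 (quasi-likelihood, TMM, filterByExpr) in R 4.3.3 on the 11 callus libraries, without a replicate block. Alternatives used DESeq2 1.42.0 and limma 3.58.1 on log2 TPM with a pseudocount of 1 or 0.1, with genes of a mean of at least 0.1 TPM. The procedure was tested on simulated data. The members, lists and tests were chosen with earlier results of these data known. Identifiers were printed for the 2 highest ratios, the genes on both sides of the threshold (ranks 22 and 23, since rank 200 does not exist), and the largest called rise and fall in each light contrast among members whose groups did not overlap and whose higher group had 5 CPM or more throughout; the dose contrasts follow the same rule by rank. Other ranks were chosen for the text after their values were seen.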

Additional observations from a re-analysis of the deposited data

Results flagged for a closer look

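The effect of light differed between both doses of 2,4-D, 2 and 4 mg/L, in 10 of the 20 members tested, by the interaction term of the edgeR fit at an adjusted p under 0.05. Over all genes tested 11.5% were called. Of the genes with at least 5 CPM in both basal plate libraries 21.2% were called, 17.1% with a negative and 4.17% with a positive interaction. No explanation was tested. The interaction is the log2 fold change of light over dark at 4 mg/L minus that at 2 mg/L. It was negative for Crpow_TRINITY_DN4477_c0_g1 (rank 3, -3.38), Crpow_TRINITY_DN5791_c0_g3 (rank 22, -3.04), rank 13 (-3.03), rank 11 (-2.99) and rank 4 (-2.32). It was also negative for Crpow_TRINITY_DN89190_c0_g1 (rank 10, -2.08), rank 18 (-1.30) and rank 16 (-1.15). It was positive for rank 5 (2.36) and rank 20 (1.64). With limma the calls of ranks 4, 10, 11, 16, 18, 20 and 22 were lost at both pseudocounts, and that of rank 5 at a pseudocount of 1. DESeq2 did not call rank 10 (adjusted p = 0.0614). The calls of ranks 16 and 18 were also lost with library totals and when some single libraries were left out. For ranks 3, 4 and 16 light was called lower at 4 mg/L and was not called at 2 mg/L, and for ranks 5, 10, 18, 20 and 22 it was called at 2 mg/L and not at 4 mg/L. Leaving out one library moved the fold by over 1.5 times for rank 3 (-4.07 without light-grown library C at 4 mg/L), rank 4 (-3.00) and rank 5 (1.38) without dark-grown library A at 2 mg/L, and rank 22 (-4.07 without dark-grown library C at 2 mg/L).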

How the results depend on the processing

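The 47 member results called in the main fits were followed under the alternatives, and uncalled members or gained calls were not counted. Of these 938 values, 847 kept their direction and call, 91 kept their direction and lost the call, and none reversed. Each callus library was left out for every contrast, also for contrasts of groups that did not hold it. There the fold could change little, so the 847 values are no measure of stability. Of the 91 values 46 were outside limma. Limma called 8 (pseudocount 1) and 9 (pseudocount 0.1) members for light at 2 mg/L and 8 and 8 at 4 mg/L. It called 6 and 7 for the dose in light, 0 and 0 for the dose in the dark, and 2 and 3 for the interaction. Of the genes with at least 5 CPM in both basal plate libraries, limma called 44.6% and 44.6% for light at 2 mg/L and 24.4% and 24.8% at 4 mg/L. For the dose in light these shares were 25.7% and 26.7%, and for the interaction 12.8% and 13.1%. Why limma called fewer members was not tested. The dose in the dark called 0 members with library totals, 0 with at least 1 CPM in 2 libraries, 2 with DESeq2 and 4 without a filter on low counts. Of the genes with at least 5 CPM in both basal plate libraries 0.687%, 0.777%, 1.61% and 1.80% were called in the same order, against 0.802% in the main fit. The cause was not tested. Each callus library was also left out, and these ranges omit the fits with a lone dark-grown library at 2 mg/L. Light gave 14 to 15 calls at 2 mg/L and 9 to 12 at 4 mg/L. The dose gave 8 to 14 calls in light and 0 to 2 in the dark, and the interaction 8 to 11. Shares of the genes with at least 5 CPM in both basal plate libraries were 37.1% to 45.1%, 16.7% to 31.7%, 22.3% to 33.4%, 0.441% to 1.25% and 14.9% to 24.6%, in this order.

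The number of genes meeting the rule was 7 with TMM-scaled CPM (all 7 members), 4 with a pseudocount of 5 and 81 with a ratio of at least 2, and ran from 22 to 1055 when a replicate was left out (1055 without basal plate 1, 67 without basal plate 2). Salmon counts gave 19 genes, 18 of them members, and gene TPM gave 15, of which 10 were members. With salmon counts the summed member CPM was 847 in the basal plate, 36.4 in leaf, 63.5 in bulb, and 148 and 399.7 in light-grown callus with 2 and 4 mg/L. With TMM-scaled CPM it was 810.5 in the basal plate, 37.1 in leaf and 107 in bulb. Summed gene TPM was 649 in the basal plate, 63.7 in bulb, and 135 and 433 in light-grown callus. Without rank 5 the sum was 894 in the basal plate, 150.3 and 107 in light-grown and 179 and 205 in dark-grown callus.

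Whether the letters of callus replicates pair libraries could not be settled. Correlations of same-letter deviations lay between -0.103 and 0.155 over 15 pairs, 2 of them above 0.1. Of 11 libraries 5 correlated best with their own letter. The deviations were taken from the means of small groups, which constrains these correlations, so they cannot exclude pairing. With a replicate block 14 members were called for light at 2 mg/L, 11 at 4 mg/L, 12 and 1 for the dose in light and in the dark, and 11 for the interaction. The shares of the genes with at least 5 CPM in both basal plate libraries were 43.9%, 27.4%, 33.6%, 1.16% and 23.7% in the same order.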
